A study of Mus musculus with 80 samples.

Results

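DNA pulled down with dimethylated lysine 9 of histone H3 (H3K9me2) was set against the input chromatin of the same culture condition, serum, by bisulfite sequencing. The comparison took 4 of the 80 samples of the series, which were 2 H3K9me2-bound libraries and 2 input libraries. They were read over autosomal windows of 10 kb (build NCBIM37) with 20 or more calls in each of the 4, after positions with over 20 calls had been left out. A call is 1 read base that reports 1 cytosine as methylated or unmethylated. Of 238541 windows with any call, 205719 (86.2%) had enough calls and 32822 did not.

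The study followed mouse embryonic stem cells (ESCs) from serum medium into 2i, a serum-free medium with LIF and inhibitors of the kinases MEK and GSK3. All 4 serum libraries came from wild-type cells of the line E14, kept in medium with fetal calf serum and the cytokine LIF and given no other agent. Chromatin was fixed with formaldehyde, sheared by sonication and, for the bound libraries, captured with the antibody ab1220. Other samples used were the 4 ChIP-BS libraries of E14 cells in 2i and reduced representation bisulfite sequencing (RRBS) of E14 cells. The authors describe the ChIP-BS cells in 2i as long-term 2i cells, and the sample labels give no time for them. RRBS was taken in serum and after 168 h in 2i, 2 libraries each. These samples served as other readouts of the same windows and to set classes of windows, tiles and cytosines. They did not enter the serum difference itself. Nothing in the labels says whether replicates were separate cultures, so p-values speak for these samples only, and E14 is a single line.

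H3K9me2 is laid down mainly by the enzyme pair GLP and G9a, the products of Ehmt1 and Ehmt2, and marks broad silent domains. The mark is tied to DNA methylation through UHRF1, a reader of both, which brings the maintenance enzyme DNMT1 to newly copied DNA. Active CpG islands, the CpG-dense stretches at many gene starts, usually lack both H3K9me2 and DNA methylation.

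In RNA-seq of E14 cells in serum, 3 other samples, the ESC markers were high. On the authors' log2 scale, corrected for gene length and depth, Pou5f1 stood at 8.29 ± 0.13 (SD, n = 3), Nanog at 6.78 ± 0.13 and Zfp42 at 7.70 ± 0.20. Of 6 fibroblast feeder markers, Dcn (-4.96), Lum (-5.44) and Postn (-4.5) were lowest, Col1a2 was at -0.75, Thy1 at 0.87 and Col1a1 at 2.49. Levels of the methylation machinery on the same scale ran from 2.98 ± 0.17 for Wiz, a G9a partner, to 6.62 ± 0.04 for Dnmt3l, a cofactor of de novo methylation. Ehmt1 (3.69 ± 0.10) and Ehmt2 (4.45 ± 0.12) lay below Uhrf1 (5.91 ± 0.13) and Dnmt1 (5.71 ± 0.18). Dnmt3b (6.31 ± 0.13) lay above Dnmt3a (3.04 ± 0.12), Tet1 (6.15 ± 0.10) above Tet2 (4.23 ± 0.11), and Setdb1, another H3K9 methyltransferase, was at 4.47 ± 0.12.

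The bound libraries held 21862897 and 24853266 calls and the inputs 17562898 and 19995773. Most positions (56.3% to 61.6%) had a single call, so levels were read over windows, with a median of 85 and 98 calls in the bound and 62 and 71 in the input libraries. The positions left out were 1790 to 3270 per library and took 7.47% to 11.6% of autosomal calls. Mitochondrial DNA, which has no histones, was read as a gauge of carried-over DNA, and whether unmarked nuclear DNA was removed as far was not tested. Mitochondrial DNA took 304 and 409 calls in the bound libraries against 47682 and 55325 in the inputs, a share of all calls 195 and 168 times higher in the same-numbered input. Of these calls 0.424% and 0.427% were methylated in the inputs. In the bound libraries 3 of 304 (0.987%, exact 95% interval 0.204% to 2.86%) and 0 of 409 were, the latter a count that allows a share of up to 0.733% taken as 3 calls, or 0.898% by the exact interval. Such intervals cover counting error only.

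Bound DNA was more methylated than input DNA. The mean over the 205719 windows was 80.7% in either bound library, against 75.1% and 74.0% in the inputs (80.7% ± 0.038 against 74.6% ± 0.759, SD, n = 2 each). Both bound libraries lay above both inputs, and the difference of 6.16 percentage points was larger than the gap between replicates of either kind. The exact two-sided permutation test over the 4 libraries gave p = 0.33, the smallest value that 2 against 2 (6 arrangements) allows. The difference was 5.65 points between the libraries numbered 1 and 6.67 between those numbered 2.

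The shift was largest at the low end of the distribution. The 5th percentile of windows was 65.6% and 66.1% in bound DNA against 56.1% and 55.6% in input, a difference of 10.0 points. At the 95th percentile (91.5% and 91.0% against 88.9% and 87.6%) the difference was 3.01 points. The bound libraries also had more calls per window, which narrows a distribution, and the part of depth in these differences of spread was not tested. The spread was smaller in bound DNA, with a standard deviation over windows of 8.15 and 7.84 points against 10.2 and 10.1. Windows under 50% made up 0.481% and 0.432% of windows in the bound libraries and 2.30% and 2.53% in the inputs, and windows of 80% to 90% made up 52.7% and 54.1% against 31.1% and 27.1%.

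**Figure D1:**
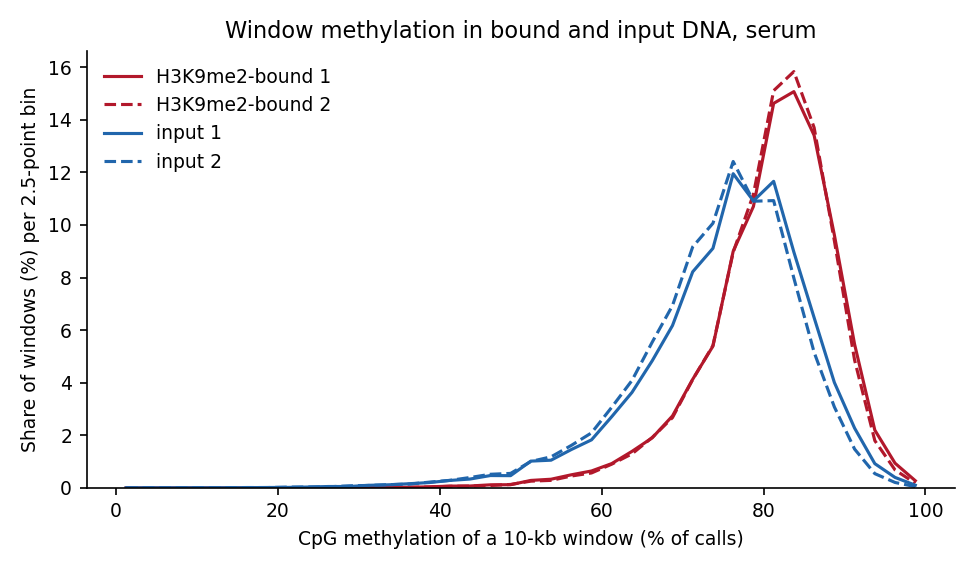
Distribution of CpG methylation over 205719 autosomal 10-kb windows in serum, as the share of windows (y axis, percent per 2.5-point bin) at each methylation level (x axis, percent of calls), 1 line per library. The bound curves (red) lie to the right of the input curves (blue) and are narrower, with windows under 50% nearly absent (0.481% and 0.432% of windows against 2.30% and 2.53%).

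Within single windows the difference had a median of 5.58 points and ran from -4.47 at the 5th to 18.6 at the 95th percentile. It was above 0 in 82.3% of windows. Both bound libraries exceeded both inputs in 95617 windows (46.5%) and lay below both in 8173 (3.97%). Levels of the bound libraries correlated with each other across windows at r = 0.527 and those of the inputs at r = 0.536 (n = 205719 windows, which share depth and CpG content within a library). The difference itself correlated less, at r = 0.167 between the same-numbered pairs and at r = 0.164 between crossed pairs. The 19 autosomes differed little, from 5.82 points on chromosome 14 to 6.92 on chromosome 11, and both bound libraries were above both inputs on each.

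The libraries were also compared at the same cytosines. At 2617321 autosomal cytosines with 1 to 20 calls in each of the 4 libraries, mean methylation was 81.0% and 80.9% in bound DNA against 76.8% and 75.7% in input. Both bound values were above both inputs, by 4.71 points on average (exact permutation p = 0.33, the smallest possible). Cytosines with exactly 1 call in every library (84977) gave 4.96 points, and those with 3 or more (449006) gave 4.90. This set holds only cytosines that the bound libraries also covered.

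The difference of pooled autosomal calls was then split into a part within tiles and a part from where the calls lay. The within part weighted each tile's difference by the input's share of calls. The place part weighted the change in share by the mean of bound and input methylation, and a remainder was left. In 10-kb tiles the total was 7.64 points, of which 7.11 (93.1%) lay within tiles, 1.22 in the place of the calls and -0.69 in the remainder. All shares within tiles hold for these weights only. Weights averaged over both groups would add the remainder to the within part, which lowers it. In 1-kb tiles covered by both groups 5.50 of 6.53 points (84.2%) lay within tiles, in 200-bp tiles 5.06 of 5.89 (85.9%), and at single cytosines 5.00 of 5.61 (89.1%). The total itself fell as tiles shrank, since smaller tiles leave out calls at places where the other group had none. Whether that DNA was absent or only not sampled was not tested.

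CpG-dense DNA stood apart. Tiles of 500 bp were sorted by the number of cytosine positions seen in any of the 8 ChIP-BS files. In tiles with 1 to 4 positions (2035391 tiles) methylation was 78.9% and 78.8% in bound DNA against 73.0% and 71.9% in input, a difference of 6.34 points. The difference was 6.83 points with 5 to 9 positions, 8.56 with 10 to 19 and 17.8 with 20 to 39 (83.9% and 84.0% against 67.1% and 65.2%). The 2217 tiles with 40 or more positions were 69.4% and 70.7% methylated in bound DNA and 29.0% and 25.3% in input, 42.9 points apart. In the same order the share of all calls in bound over that in input was 1.01, 1.02, 1.00, 0.829 and 0.249, so the densest tiles were also those that the pull-down left behind. The part of this loss of DNA in the higher methylation there was not tested.

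The profile around CpG-dense tiles that RRBS classed shows both sides. Tiles were taken with 20 or more positions and 50 or more RRBS calls in E14 serum cells, 18139 in all. Of these 8934 were unmethylated (under 10%), 4990 were methylated (80% or more) and 4215 lay between. Within 250 bp of the centre of unmethylated tiles, bound DNA was 13.2% and 14.2% methylated and input 3.53% and 3.02%. The share of calls in bound DNA was 0.061 and 0.055 of that in input, so few bound reads carry that level (14346 bound calls against 193597). At 500 to 750 bp methylation was 53.8% and 55.6% against 25.2% and 24.4%, the largest difference of the 20 distance steps at 29.9 points. Bound DNA reached 77.7% and 77.2% by 1500 to 1750 bp, where input was at 57.1% and 56.5%. At 4750 to 5000 bp the levels were 80.1% and 79.8% against 69.2% and 67.9%, still 11.4 points apart, and the share of calls was 0.483 and 0.478 of input. From the centre to 500 to 750 bp the mean rose from 13.7% to 54.7% in bound DNA and from 3.27% to 24.8% in input, and no overlap between bound and input libraries was seen at the distances named.

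Methylated CpG-dense tiles were recovered at about the same share in both kinds of DNA (bound over input 1.01 and 0.977 in the centre). There bound DNA was 86.9% and 87.3% methylated and input 85.3% and 84.2%, a difference of 2.34 points. The difference was 4.15 points at 500 to 750 bp and 6.30 at 4750 to 5000 bp, close to that over all windows.

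**Figure D2:**
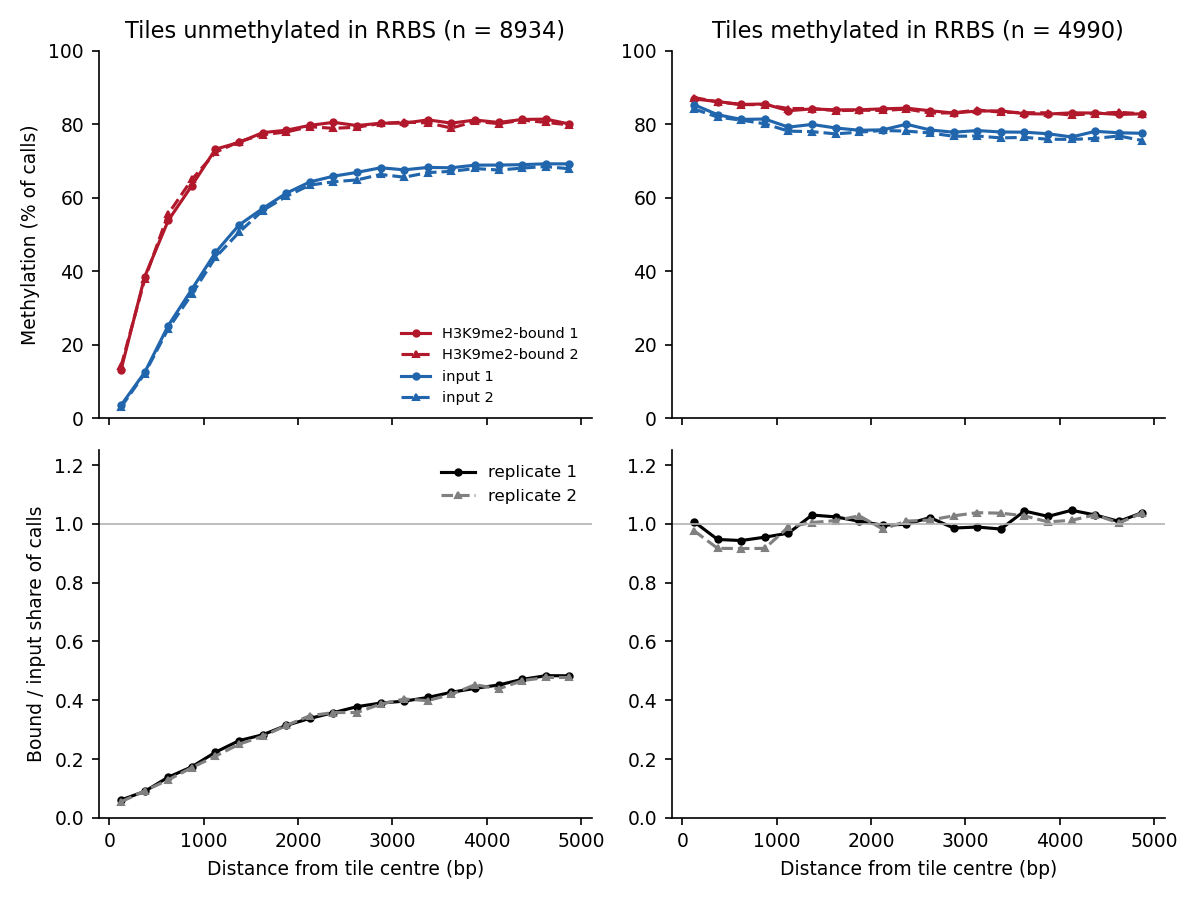
CpG methylation in percent of calls (top) and the share of calls in bound DNA divided by that in input (bottom, 1 means equal) against distance in bp from the centre of CpG-dense 500-bp tiles that RRBS classed as unmethylated (left, 8934 tiles) or methylated (right, 4990 tiles), 1 line per library or per same-numbered pair. Around unmethylated tiles bound methylation is above input at each distance, most at 500 to 750 bp (29.9 points), where the share of calls is under 0.14, while around methylated tiles the curves run 2.34 to 6.30 points apart at the distances named and the ratio stays near 1.

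Windows that held an unmethylated CpG-dense tile (3118) were 77.0% methylated in both bound libraries against 56.6% and 54.3% in input, a difference of 21.6 points. In the 4357 windows with a methylated CpG-dense tile and no unmethylated one the levels were 84.0% and 84.1% against 79.8% and 78.6%, 4.81 points apart. The other 198244 windows, 80.7% against 75.3% and 74.2%, differed by 5.95 points. Leaving out every window with an unmethylated tile lowered the difference over windows from 6.16 to 5.92 points, so these windows held little of it. RRBS reads only CpG-rich fragments, and some windows of the last class may hold unmethylated CpG-dense DNA that it did not cover.

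The same cytosines were sorted by distance as well. Cytosines with calls in all 4 libraries lay 6.48 points apart within 500 bp of an unmethylated tile (34.0% and 33.4% against 27.7% and 26.7%, 759 cytosines). They were 8.23 points apart at 500 to 1000 bp (66.4% and 69.2% against 60.4% and 58.7%, 1153 cytosines), 7.21 at 1000 to 2000 bp and at 2000 to 5000 bp, and 4.69 farther away (2593694 cytosines). The order within 5 kb was not shared by the pairs, since at 500 to 1000 bp the libraries numbered 1 differed by 5.98 points, their lowest value, and those numbered 2 by 10.5, their highest. These values are not directly comparable with the profile, which pooled all calls by distance, since the shared cytosines were few and their input level near the tiles was higher. Sorted instead by their RRBS level (10 or more RRBS calls), cytosines of 0% to 10% differed by 1.88 points (24.3% and 23.3% against 22.2% and 21.7%, 214 cytosines). Those of 30% to 50% differed by 12.5 points (56.3% and 53.5% against 41.2% and 43.5%, 124 cytosines), those of 50% to 70% by 10.3 points and those of 90% to 100% by 3.45 points (89.0% and 90.1% against 86.8% and 85.5%, 3153 cytosines). In each of these classes both bound libraries were above both inputs, and the difference was largest at intermediate methylation.

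**Figure D3:**
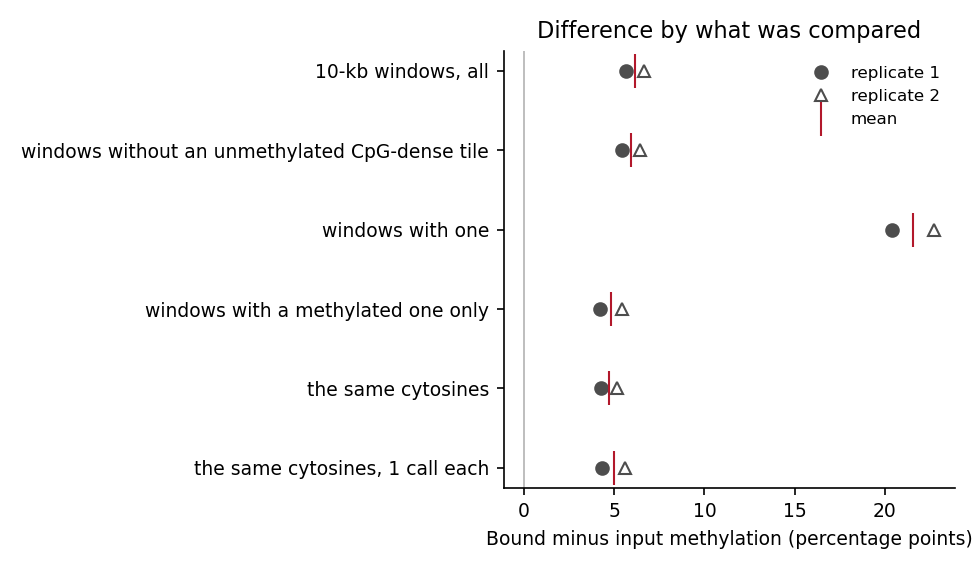
Bound minus input methylation in percentage points (x axis) for 6 ways of choosing what is compared (rows), with the difference of libraries numbered 1 (circles), of those numbered 2 (triangles) and their mean (bars). Windows with an unmethylated CpG-dense tile stand at 21.6 points, and the other comparisons lie between 4.71 and 6.16.

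Windows were next ordered by input methylation. Each class was set by 1 input library and the difference taken against the other, so that an error in the first did not enter the difference. Where input 1 was under 50% (4728 windows) bound DNA was 67.8% and 67.9% methylated and input 2 51.4%, a difference of 16.4 points. The difference was 10.1 points at 50% to 60%, 7.67 at 60% to 70%, 6.33 at 70% to 80%, 5.53 at 80% to 90% and 4.98 at 90% or more. With the inputs exchanged the values were 15.1, 8.83, 6.48, 5.14, 4.33 and 3.82. The less methylated the input was, the farther bound DNA lay above it in percentage points, and no class had bound DNA below input. Points leave less room near full methylation, and the part of that limit in this order was not tested.

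The difference was also larger in windows less enriched in the pull-down. Enrichment of a window was the log2 ratio of its share of calls in bound over input DNA, taken from the 4 libraries in 2i, which do not enter the serum difference. Windows were split into 5 equal classes. From the least to the most enriched class the difference was 9.74, 6.40, 5.37, 4.87 and 4.42 points. Bound methylation hardly varied over the classes, from 80.3% to 81.3% in single libraries, while input rose from 72.0% and 70.9% in the least to 77.2% and 76.2% in the most enriched. Enrichment taken from the serum libraries gave 9.32 points in the lowest and 4.88 in the highest class. Windows with an unmethylated CpG-dense tile had both a low serum enrichment (median -1.28, against 0.08 over all windows) and a large difference (21.6 points). Their part in the order by enrichment was not tested. Serum and 2i enrichment correlated at r = 0.740 and Spearman's rho = 0.668 over the 205719 windows, which is a description, since windows share CpG content and mappability. Even in the most enriched class both bound libraries (81.1% and 81.1%) lay above both inputs.

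Enrichment was then set against CpG density. Among the densest of 5 equal classes of windows the least enriched were 81.3% and 81.1% methylated in bound DNA against 70% and 68.6% in input (11.9 points), and the most enriched 84.2% and 84.2% against 80.8% and 79.7% (3.97 points, 8229 windows each). Among the least dense class the values were 6.93 and 4.97 points. The order by density alone was weak, 5.69, 5.63, 6.00, 6.57 and 6.92 points from the class with the fewest to that with the most CpG positions, and it turned round when positions were counted in the 2i files alone (6.22 points with the fewest and 5.81 with the most). The number of positions seen depends on depth as well as on CpG content.

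**Figure D4:**
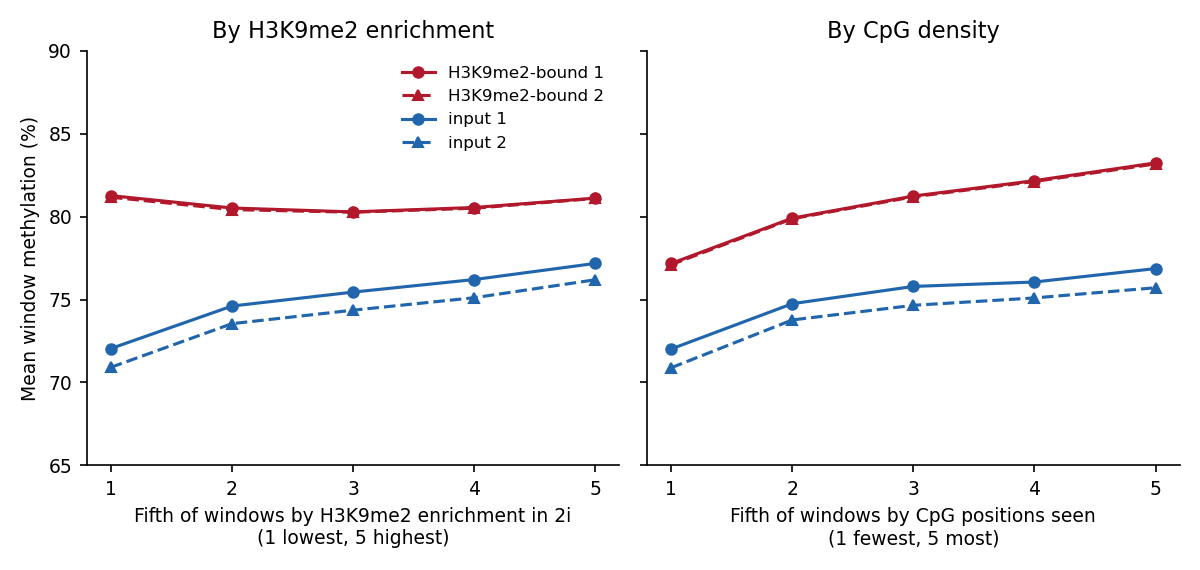
Mean window methylation in percent (y axis, from 65 to 90) in 5 equal classes of the 205719 windows, ordered by H3K9me2 enrichment in 2i (left) or by CpG positions seen (right), with 1 line per library. On the left the bound lines (red) stay between 80.3% and 81.3% while the input lines (blue) rise, so the gap narrows from 9.74 to 4.42 points. On the right the gap runs from 5.63 to 6.92 points.

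Single windows were tested with a quasi-binomial fit of methylated and unmethylated calls, with the dispersion moderated by limma and Benjamini-Hochberg adjustment over all windows. The moderated dispersion lay between 1.42 and 2.03 in every window, with a prior of 86.4 degrees of freedom. The p-values of single windows therefore rest mainly on call counts and a shared dispersion, and little on the spread between a window's own replicates. A window was called at an adjusted p under 0.05 and a difference of 10 points or more. In bound DNA 7011 windows (3.41% of those tested) were called higher and 18 (0.00875%) lower. Without adjustment, 40269 of the 205719 windows had a p under 0.05 in either direction. The general shift enters that count, which was 16557 of the same windows once each library was centred on its overall methylation. The count of windows called higher rested on each bound library, as it was 1123 without bound replicate 1 and 853 without bound replicate 2, and 3784 without input replicate 2. Fits without 1 library leave 1 sample in a group, so the spread comes from the other group and the shared dispersion. The count was 0 with limma on log2 ratios (33360 of 205719 windows at an unadjusted p under 0.05, in either direction). When each library was centred on its own overall methylation, so that only the departure from the general shift counted, 689 windows (0.335%) were called higher and 63 (0.0306%) lower.

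The windows called higher were 84.6% and 84.5% methylated in the bound libraries, above the average of 80.7%, and 60.1% and 58.6% in the inputs, below the averages of 75.1% and 74.0%, and input was under 50% in 21.6% of them, against 1.90% of all windows. These levels chose the windows and are a description. Their median serum enrichment, from the call totals that also entered the fit, was -0.63 on the log2 scale against 0.08 over all windows. Their median enrichment in the 2i libraries, which the call did not use, was -1.21 against 0.05, and their median number of CpG positions 134 against 101. Of the 3118 windows with an unmethylated CpG-dense tile 1361 (43.7%) were called higher, which was 19.4% of all windows called higher, beside 135 (3.10%) of the 4357 with a methylated tile only and 2.78% of the windows with neither. The share called higher went from 9.08% in the least to 1.08% in the most enriched class (2i enrichment).

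RRBS, another assay on other samples of E14 cells, had 20 or more calls at 3470 of the windows called higher (49.5%, against 17.8% of all windows). RRBS methylation in serum was 28.1% and 28.8% there, against 62.1% and 62.7% over all 36551 covered windows, and 58.1% of them were under 20% against 18.9%. After 168 h in 2i the values were 11.6% and 11.2% against 31.6% in both replicates. The other windows called higher had too few RRBS calls to be read.

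The same windows were read in the 4 ChIP-BS libraries of cells in 2i. With 10 or more calls in each, all 193276 windows were 39.8% and 39.6% methylated in bound DNA and 34.0% and 34.1% in input. Bound was above input by 5.69 points, where the serum libraries gave 5.87 in the same windows. The media differed by 0.18 points, less than the gap between the 2 same-numbered differences in either medium (exact permutation p = 1, smallest possible 0.33). Those were 5.36 and 6.38 points in serum and 5.80 and 5.59 in 2i. Mean input in these windows was 74.8% in serum, so equal points are not equal relative changes. At the 5917 windows called higher in serum that could be read, bound DNA in 2i was 39.2% and 39.1% methylated and input 29.4% and 29.5%, 9.69 points apart. Both bound libraries lay above both inputs in 53.0% of them, against 41.5% of all windows. At 537 of the 689 windows called after centring, the 2i levels were 38.2% and 36.8% against 21.8% and 22.4%, and both bound libraries were above both inputs in 67.2% of them. So the windows singled out in serum differed more than other windows in libraries that had no part in choosing them, though by less than in serum, where the choice itself raises the value. At 16 of the 18 windows called lower in serum the 2i difference was -2.66 points with a median of -0.33, and 43.8% were above 0.

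**Figure D5:**
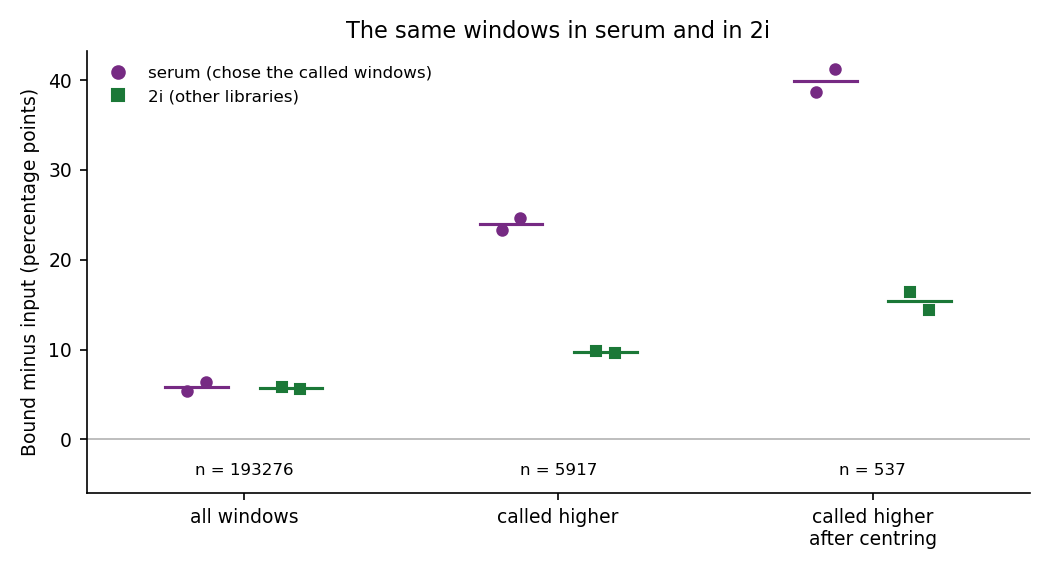
Bound minus input methylation in percentage points (y axis) in serum (purple circles) and 2i (green squares), 1 point per same-numbered pair of libraries with bars at the means, for all windows, for those called higher in serum and for those called higher after centring. Over all windows serum and 2i stand at 5.87 and 5.69 points, and in 2i the called windows stand at 9.69 and 15.4 points, above all windows, while the serum values of called windows chose them.

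The windows called higher formed 6654 runs, single windows included, and 90.1% of them had no called neighbour. Only 340 runs held 2 or more windows (697 windows, 9.94% of those called) and 13 held 3 or more. Of all windows tested 3.41% were called higher, and how many neighbours that share alone would give was not tested. Neighbours that differed without passing the test would break a run. The longest runs spanned 4 windows or 40 kb, a length that 3 runs reached. The run at chr2:168770001-168810000 was 71.0% and 70.3% methylated in bound DNA against 39.3% and 31.4% in input, with a serum enrichment of -1.84 on the log2 scale. The run at chr6:51310001-51350000 stood at 83.6% and 84.5% against 54.3% and 54.2%, with a serum enrichment of -1.15. The run at chr6:70740001-70780000 stood at 90.8% and 84.6% against 61.3% and 65.0%, with a serum enrichment of -1.64. By this serum measure, from calls that also entered the fit, all 3 were less enriched than the median window. No bound library overlapped an input library. In 2i the levels of the first run were 24.7% and 20.5% against 13.5% and 10.98%, of the second 34.4% and 28.6% against 20.6% and 20.3%, and of the third 34.6% and 44.9% against 29.5% and 26.2%, bound above input in each.

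Among 3521 windows called higher with 50 or more calls in every library and no overlap between bound and input, the 5 with the largest difference lay on 5 chromosomes. At chr11:23970001-23980000 bound DNA was 82.8% and 89.7% methylated and input 25.2% and 24.2% (61.7 points on pooled calls, adjusted p = 7.27e-15, 97 to 227 calls per library). RRBS read 0.817% and 1.09% there in serum. The window at chr10:84210001-84220000 was at 90% and 93.4% against 36.3% and 34.3% (56.5 points, adjusted p = 5.31e-12), with RRBS at 17.0% and 18.5%. These 2 windows had a serum enrichment of -1.27 and -1.47 on the log2 scale, so bound DNA was scarce there by calls that also entered the fit. In 2i they were at 22.1% and 39.6% against 8.43% and 22.5%, and at 56.8% and 39.7% against 23.7% and 45.7%, so bound and input overlapped in both windows.

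The window at chr4:6910001-6920000 was 92.5% and 80% methylated in bound DNA against 26.9% and 40% in input (53.6 points, adjusted p = 1.9e-06), on 50 to 67 calls per library. The window at chr2:136940001-136950000 was at 83.6% and 89.3% against 41.2% and 26.4% (53.1 points, adjusted p = 8.29e-09). The window at chr9:16300001-16310000 was at 85.2% and 83.1% against 41.1% and 25% (50.7 points, adjusted p = 6.19e-06). RRBS in serum read 0.948% and 0.997%, 0.901% and 0.683%, and 2.68% and 2.82% in these 3 windows, all near 0. Their serum enrichment was -0.70, -1.24 and -0.39 in the same order. In 2i the window on chromosome 4 was at 37.8% and 64.7% against 34% and 22.7% and that on chromosome 2 at 34.4% and 42.2% against 30.8% and 20.3%, bound above input without overlap, though the first rests on 17 to 66 calls per library. The window on chromosome 9 was at 31.2% and 36.4% against 32.1% and 18.9%, with overlap. So each of the 5 windows joined CpG-rich fragments of low methylation with bound DNA at 80% or more. The serum differences chose these 5 windows, so their size and p-values are a description. With any 1 library left out, which leaves 1 sample in a group, the differences of the 5 ran from 43.0 to 65.1 points. None was called by limma on log2 ratios.

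Of the 18 windows called lower only 4 had 50 or more calls in every library and no overlap. At chr19:61300001-61310000 bound DNA was 33.3% and 50.9% methylated and input 60.7% and 67.0% (-23.0 points, adjusted p = 0.0206), while in 2i the order was the opposite (25% and 36.5% against 16.9% and 19.3%). Serum RRBS was low in this window too, at 11.1% and 13.7% (2665 and 2572 calls). At chr1:64040001-64050000 the levels were 80% and 74.8% against 93.0% and 97.4% (-18.7 points, adjusted p = 0.00925), and in 2i 49.6% and 43.5% against 47.0% and 43.3%. At chr13:50810001-50820000 they were 73.2% and 75.3% against 87.8% and 95.3% (-17.6 points, adjusted p = 0.0222). The 2i levels of this window were far above the average in 2i, at 83.2% and 73.5% in bound DNA and 80.8% and 59.3% in input, and RRBS read 98.5% and 98.6% in serum. At chr10:11400001-11410000 they were 78.0% and 84.5% against 94.5% and 93.2% (-13.5 points, adjusted p = 0.0381), and in 2i 71.7% and 69.6% against 68.8% and 72.8%. The windows on chromosomes 1 and 10 had only 5 to 19 RRBS calls per serum library. Each of these 4 lost its call when at least 1 of the single libraries was left out, without input replicate 2 in all 4, though the differences stayed negative (then -19.0, -16.1, -13.3 and -14.1 points in the order given). The serum differences chose these 4 windows too, so their sign is a description. In no case did the 2i libraries show bound DNA below input without overlap.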

How the data were processed

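Bound and input ChIP-BS libraries of E14 cells in serum (2 each) were read from files in which the authors deposited, per cytosine, the percent methylated with the call counts behind it (methylated, then unmethylated). The deposited percent equalled the counts in every row (largest gap 0), so the counts were used. The submitters' processing notes name Trim Galore 0.3.5, Bismark 0.12.3, Bowtie2 and TopHat2 2.0.11. The last positions on chromosome 1 lie beyond its GRCm38 length, and the build was taken as NCBIM37. No source used here states whether PCR copies were removed, and copies would add calls that are not independent. RRBS files have the same layout, with no ceiling on calls per position used here. The log2 RNA-seq values were deposited by the authors after length and depth correction and scaling to a common 75th percentile.

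Calls were summed in 10-kb windows with Python 3.11.15, numpy 2.4.6, pandas 2.3.3 and scipy 1.17.1. Windows were tested in R 4.3.3 by quasi-binomial logistic fits, whose dispersion (median 1.44) was moderated with limma 3.58.1, with Benjamini-Hochberg adjustment. Group means were compared by exact permutation of the libraries. The fit was also run on simulated calls, with levels, depth and dispersion taken from these data, and recovered only a minority of the windows changed there. Samples were grouped by their titles. Windows named are up to 5 called with the largest difference in each direction, with 50 or more calls in each library and no overlap (4 called lower qualified), and the 3 longest runs. The comparison, its classes and gene lists were chosen with earlier results of these data known. Windows sorted by RRBS tiles, and cytosines sorted by RRBS level or distance from a tile, were added after seeing the data. No gene annotation or sequence of this build was used here, and the ChIP-seq table, on another build, was not joined.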

Additional observations from a re-analysis of the deposited data

Results flagged for a closer look

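Calls outside the windows of the comparison showed the same direction. On chromosome X, left out of the windows, 10708 windows met the same minimum and were 81.5% and 81.3% methylated in bound DNA against 76.3% and 75.2% in input, a difference of 5.64 points. At the autosomal positions with over 20 calls, also left out, bound DNA was 81.6% methylated in both libraries and input 80.5% and 80.1%, a difference of 1.30 points. These were pooled calls over each library's own positions (1790 to 3270), which were not matched between libraries. In both cases each bound library was above each input.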

How the results depend on the processing

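The difference over windows stayed within 1 SD of the same-numbered differences (0.721 points) under pooled calls, a minimum of 50 calls, no ceiling, 1 call per position, each position counted once, and without windows or positions near unmethylated CpG-dense tiles, the last 2 chosen after seeing the data. It was 6.90 with no minimum of calls. Leaving out 1 library gave 5.62 to 6.70 points over windows and 4.20 to 5.22 at the same cytosines. With the replicate block the 2 differences were again 6.16 and 4.71, and 8137 windows were called higher and 23 lower. The deviations of same-numbered libraries correlated at 0.003. This cannot decide whether those libraries were paired, since counting error in single windows could hide a shared part. Counts of windows called varied most. Leaving out 1 library gave 853 to 6929 higher and 5 to 25 lower. Higher and lower counts were 689 and 63 after centring, 3913 and 8 with 50 calls per window (of 112894 windows), 794 and 5 with 1 call per position (of 63962), 3786 and 11 with each library thinned to the calls of the shallowest (195241 windows), 0 and 0 with limma on log2 ratios, and 24720 and 187 with Fisher's exact test, which ignores the spread between replicates. Windows of 20 kb gave 15657 and 11 (of 115589), and windows of 5 kb 1719 higher (of 250112), where the main fit tested 205719. By the same weights, the share within 10-kb tiles was 93.4% with no ceiling, with replicate 1 and with replicate 2 libraries alone. The densest minus the least dense class was 1.23 points and turned to -0.41 with positions from the 2i files. The least minus the most enriched class was 4.44 with serum enrichment (5.32 with 2i). Windows called higher stood at 9.06 points in 2i with 20 calls per library and at 21.6% in RRBS with 50 calls. The cause of these changes was not tested, apart from the fewer windows or calls that stricter minimums and fewer libraries leave. Depth limits single windows, and a window not called is not shown to be alike in both kinds of DNA.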
